A study of Mus musculus with 11 samples.

Results

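The chemokine receptors described here are 7 genes, Ccr1, Ccr2, Ccr7, Ccrl2, Cxcr2, Cxcr4 and Cx3cr1, among 18193 genes measured on an Affymetrix mouse array. They were taken by name, and each was represented by the probe set with the highest mean over all 11 arrays among its probe sets with 1 gene symbol. The 7 genes have 12 such probe sets, and all 12 are described. Values are the log2 probe set values that the authors deposited, so a difference of 1 is a 2-fold difference, and no filter on low values was applied.

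All cells came from bone marrow of Rag1-/- C57BL/6 mice aged 7 weeks, which lack mature T and B cells, and were sorted for F4/80 after 7 days in culture. M1 macrophages received IFN-g and, in the last 24 h, LPS (3 arrays). M2a macrophages received IL-4 and IL-13 (3 arrays). M0 macrophages received no cytokines (5 arrays). M1 and M2a were each compared with M0 and then with each other. The labels number the replicates without saying whether they were separate mice or cultures, so p-values measure the spread between these samples only, which may be technical.

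Chemokine receptors are membrane proteins that couple to inhibitory G proteins and steer leukocytes along gradients of small secreted proteins, the chemokines. In myeloid cells Ccr2 draws monocytes out of the marrow, Cxcr4 holds cells in it, Ccr1 and Cxcr2 serve inflammatory recruitment, Cx3cr1 binds fractalkine, and Ccr7 guides cells to lymph nodes. Ccrl2 is an atypical receptor that binds chemerin without the usual signal and can present it to cells that carry the chemerin receptor Cmklr1.

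In M1 macrophages Ccrl2 rose 7.06-fold, while Cxcr2 fell 7.89-fold, Ccr1 fell 6.26-fold and Cxcr4 fell 2.77-fold against M0. In M2a macrophages Cxcr2 fell 4.39-fold, Cx3cr1 fell 3.20-fold and Cxcr4 fell 2.36-fold, and no member rose. The M1 and M2a states differed from each other in Ccr1 and Cxcr2, which were lower in M1, and in Ccrl2 and Cx3cr1, which were higher in M1. Ccr7 passed the test in no comparison. Ccr2 also passed in none by the probe set that represents it, but 3 other Ccr2 probe sets fell in M2a, and 2 of these also fell in M1. The deposited table has no detection calls, and the lymphocyte marker list averaged 4.63 to 4.78 in M1, 4.83 to 4.90 in M2a and 5.01 to 5.60 in M0. These are means over 8 genes, and single genes of the list spread more widely. The T cell marker Cd3g read 2.93 to 3.34 over all arrays, and the T cell marker Cd4 read 5.76 to 6.19. The list therefore sets no detection limit. Values up to the level of Cd4, such as Cxcr2 in M1 and M2a, were not shown to lie above background. A fold that rests on such a value is a fold of the deposited values only.

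In the limma fit across all genes, 4 of the 7 members changed in M1 against M0, 1 upward and 3 downward, at an adjusted p under 0.05. Among all 18193 genes 39.7% changed, 22.1% upward and 17.6% downward. In M2a against M0, 3 of the 7 changed, all downward, beside 31.9% of all genes, 18.6% upward and 13.3% downward. In M1 against M2a, 4 of the 7 changed, 2 upward and 2 downward, beside 29.4% of all genes, 13.7% upward and 15.6% downward. The median difference of the members was -0.14, -0.24 and 0.33 in these comparisons, against 0.06, 0.07 and -0.02 for all genes. Counts out of 7 are too small to be judged against this background, and no set test was run. The results are therefore given receptor by receptor.

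**Figure D1:**
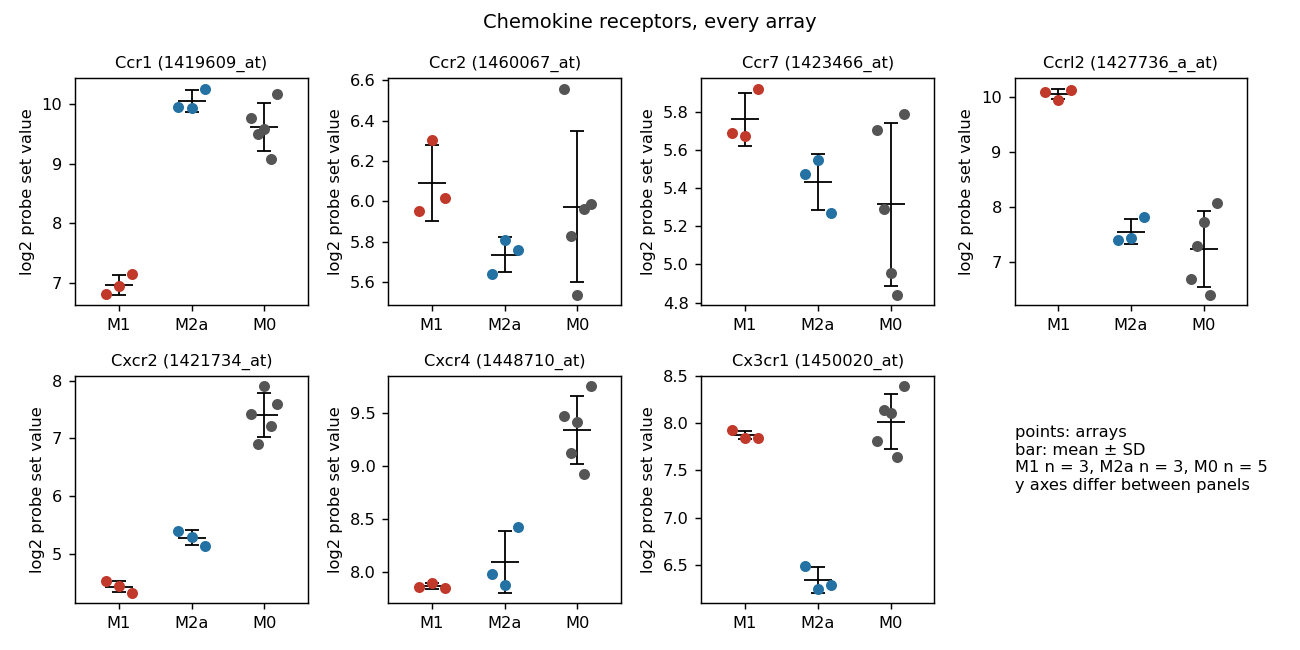
Deposited log2 values of the probe set that represents each receptor, by state (M1 n = 3, M2a n = 3, M0 n = 5). Points are arrays and bars are the mean ± SD. The M1 arrays of Ccrl2 lie above all other arrays, and those of Ccr1 and Cxcr2 lie below them.

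**Figure D2:**
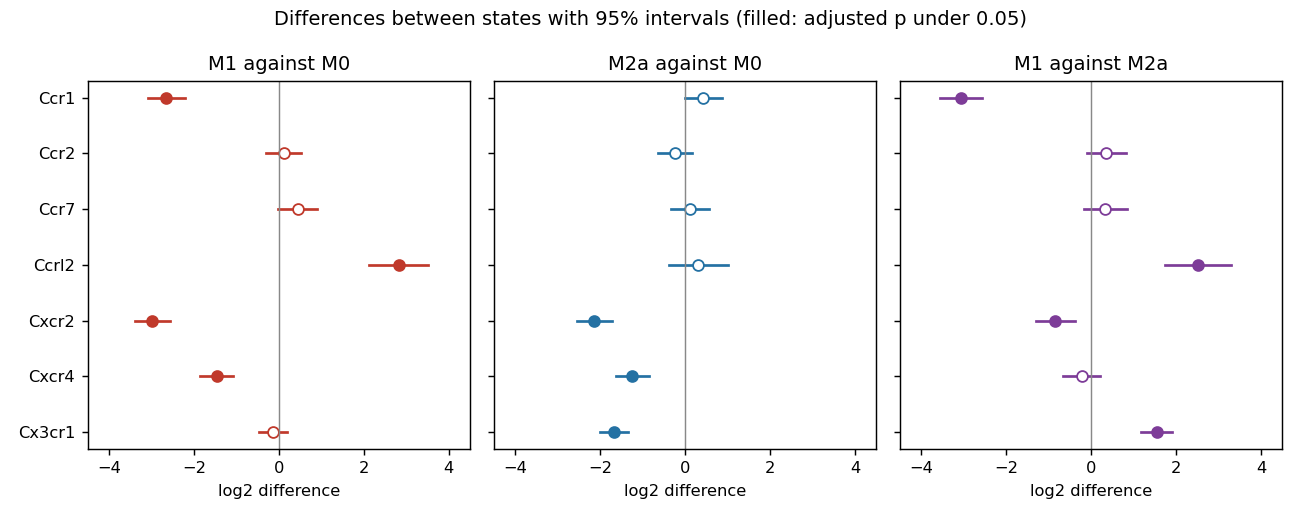
Log2 difference of each receptor in the limma fit (x axis) for M1 against M0, M2a against M0 and M1 against M2a, with 95% intervals. Filled points have an adjusted p under 0.05 over 18193 genes. Cxcr2 and Cxcr4 lie left of 0 in both comparisons against M0.

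The promoters of the receptor that rose in M1 and of the 2 that fell in both states are shown so that their composition can be compared. RefSeq windows of 300 bases, from 250 before to 50 after a transcript start (GRCm38.p6), were given for 6 of the 7 members. Capitals mark CpG dinucleotides, and each sequence runs 5′ to 3′ on the strand of the gene. The Ccrl2 window is chr9:111057469-111057768 on the minus strand, the most upstream of 3 overlapping windows, the Cxcr2 window is chr1:74153744-74154043 on the plus strand, and the Cxcr4 window is chr1:128592250-128592549 on the minus strand.
Ccrl2: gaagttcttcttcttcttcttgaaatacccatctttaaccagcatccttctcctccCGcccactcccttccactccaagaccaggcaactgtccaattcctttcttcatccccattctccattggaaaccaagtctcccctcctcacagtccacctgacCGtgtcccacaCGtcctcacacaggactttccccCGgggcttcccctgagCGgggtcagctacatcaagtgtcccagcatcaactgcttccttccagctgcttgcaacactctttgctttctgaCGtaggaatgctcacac
Cxcr2: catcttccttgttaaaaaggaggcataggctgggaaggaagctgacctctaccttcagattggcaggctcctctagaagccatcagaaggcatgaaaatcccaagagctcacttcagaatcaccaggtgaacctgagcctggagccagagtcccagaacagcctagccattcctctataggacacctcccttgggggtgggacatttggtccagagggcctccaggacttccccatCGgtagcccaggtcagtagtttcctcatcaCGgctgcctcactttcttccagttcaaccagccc
Cxcr4: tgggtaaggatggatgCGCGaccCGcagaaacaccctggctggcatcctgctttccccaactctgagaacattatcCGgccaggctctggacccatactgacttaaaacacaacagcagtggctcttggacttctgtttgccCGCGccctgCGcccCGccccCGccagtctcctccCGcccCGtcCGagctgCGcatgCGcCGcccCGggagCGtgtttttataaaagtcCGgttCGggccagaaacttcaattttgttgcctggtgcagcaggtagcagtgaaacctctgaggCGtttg

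The 3 windows differ in CpG content. The Cxcr4 window holds 20 CpG at a GC content of 59.3%, the Ccrl2 window shown 6 at 53.0% and the Cxcr2 window 2 at 54.0%. The other Ccrl2 windows hold 8 CpG each at 52.0%. The median of 32851 promoters is 7 CpG at 52.7% GC. The Cxcr4 window also holds the letters TATAAA starting 30 bases before the transcript start, letters that 8.32% of promoters hold on the gene's strand. On both strands, none of the 8 windows of the 6 members holds a GAS element (TTCNNNGAA, in 8.3% of promoters), a STAT6 site (TTCNNNNGAA, in 6.95%), an ISRE (GAAANNGAAA, in 3.44%) or the NF-kB spelling GGGNNTTTCC (in 1.63%). This says only that those letters are not in these windows. On the chromosomes, Ccr1 and Ccr2 lie in the cluster of chemokine receptors on chromosome 9, where Ccr1 has Xcr1 and Ccr1l1 as neighbours and Ccr2 has Ccr3 as a neighbour. Ccrl2, beside Ltf, and Cx3cr1, beside Ccr8, lie elsewhere on chromosome 9. Cxcr2, beside Cxcr1, and Cxcr4 lie on chromosome 1, and Ccr7 lies on chromosome 11.

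Ccrl2 was the only member that rose in any comparison against M0. Its log2 values were 10.08, 9.94 and 10.12 in M1 macrophages, 7.40, 7.43 and 7.81 in M2a macrophages, and 6.69, 7.28, 7.72, 6.40 and 8.06 in M0 macrophages. Every M1 array lay above every M2a and M0 array, and the M2a arrays lay within the M0 range. Ccrl2 averaged 10.05 ± 0.09 in M1 (SD, n = 3) and 7.23 ± 0.69 in M0 (SD, n = 5), a difference of 2.82 ± 0.32 (SE) with a limma adjusted p of 2.98e-05, larger than the difference of 99.12% of genes. With the hybridization controls as a covariate, a setting chosen after the data were seen, that difference was 1.05 (adjusted p = 0.0268), and with the actin 5' minus 3' difference it was 1.85. M1 exceeded M2a by 2.50 ± 0.36 (SE; adjusted p = 0.000223). M2a, at 7.54 ± 0.23 (SD, n = 3), differed from M0 by 0.31 with a 95% interval from -0.38 to 1.01 (adjusted p = 0.489). With the hybridization controls as a covariate that M2a difference was -1.23 (adjusted p = 0.0084).

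Ccr1, a receptor for Ccl3, Ccl5 and, in mice, Ccl6 and Ccl9, was low in M1. Its representing probe set, 1419609_at, read 6.81, 6.95 and 7.15 in M1, 9.95, 9.93 and 10.26 in M2a, and 9.77, 9.50, 9.58, 9.07 and 10.16 in M0. The M1 arrays overlapped neither of the other states, while M2a and M0 overlapped. The difference of M1 from M0 was -2.65 ± 0.20 (SE; adjusted p = 1.25e-06), and that of M1 from M2a was -3.07 ± 0.22 (SE; adjusted p = 8.59e-07). M2a differed from M0 by 0.43 ± 0.20 (SE; adjusted p = 0.129), and without M0 array 5 by 0.56 (adjusted p = 0.0176).

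The second Ccr1 probe set, 1419610_at, read 3.40, 3.70 and 3.80 in M1, 6.70, 6.75 and 6.82 in M2a, and 7.78, 6.82, 7.21, 6.88 and 7.66 in M0. It also fell in M1, with a difference from M0 of -3.64 ± 0.21 (SE; adjusted p = 2.09e-07 over all probe sets), at M1 values whose detection was not tested. In M2a the 2 probe sets pointed in opposite directions, at 0.43 and -0.51 against M0, and neither passed (adjusted p = 0.131 and 0.089 over all probe sets). Ccr1 fell in M1 by both probe sets, and its order between M2a and M0 differed between them.

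Ccr2, the receptor for Ccl2, Ccl7 and Ccl12, depended on the probe set read. The representing probe set, 1460067_at, read 5.95, 6.30 and 6.02 in M1, 5.64, 5.81 and 5.76 in M2a, and 6.56, 5.83, 5.54, 5.96 and 5.99 in M0. Both cytokine states lay inside the M0 range there, with differences of 0.12 (95% interval -0.29 to 0.53, adjusted p = 0.651) in M1 and -0.24 (-0.65 to 0.17, adjusted p = 0.368) in M2a. Whether the values of 1460067_at lie above background was not tested in any state, so this overlap does not show that Ccr2 was unchanged. Probe set 1460067_at had the highest mean over the 11 arrays, 5.94, against 5.68 for 1421186_at, which was far higher in M0.

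Probe set 1421186_at read 4.57, 5.02 and 4.76 in M1, 3.42, 3.45 and 3.29 in M2a, and 8.29, 7.96, 6.55, 6.91 and 8.29 in M0. The 3 states did not overlap, in the order M0, M1, M2a. It fell by 2.82 in M1 (adjusted p = 0.000114 over all probe sets) and fell by 4.21 in M2a (adjusted p = 8.83e-06), and M1 exceeded M2a by 1.40 (adjusted p = 0.0249). Detection was not tested for the M1 and M2a values.

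The other 2 Ccr2 probe sets had the same order of means. Probe set 1421187_at averaged 4.54 ± 0.16 in M1, 2.77 ± 0.12 in M2a and 5.38 ± 1.01 in M0, and 1421188_at averaged 4.21 ± 0.05 in M1, 3.36 ± 0.04 in M2a and 4.78 ± 0.41 in M0 (SD, n = 3, 3 and 5). Both fell in M2a, by 2.61 (adjusted p = 0.00111) and 1.41 (adjusted p = 0.000241). In M1, 1421188_at fell by 0.57 (adjusted p = 0.0366) and 1421187_at differed by -0.84 (adjusted p = 0.159). Across the 11 arrays these 3 probe sets correlated with each other at 0.91 to 0.93 (Pearson) and with 1460067_at at 0.39 to 0.55. Which transcript each probe set reads was not tested.

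**Figure D3:**
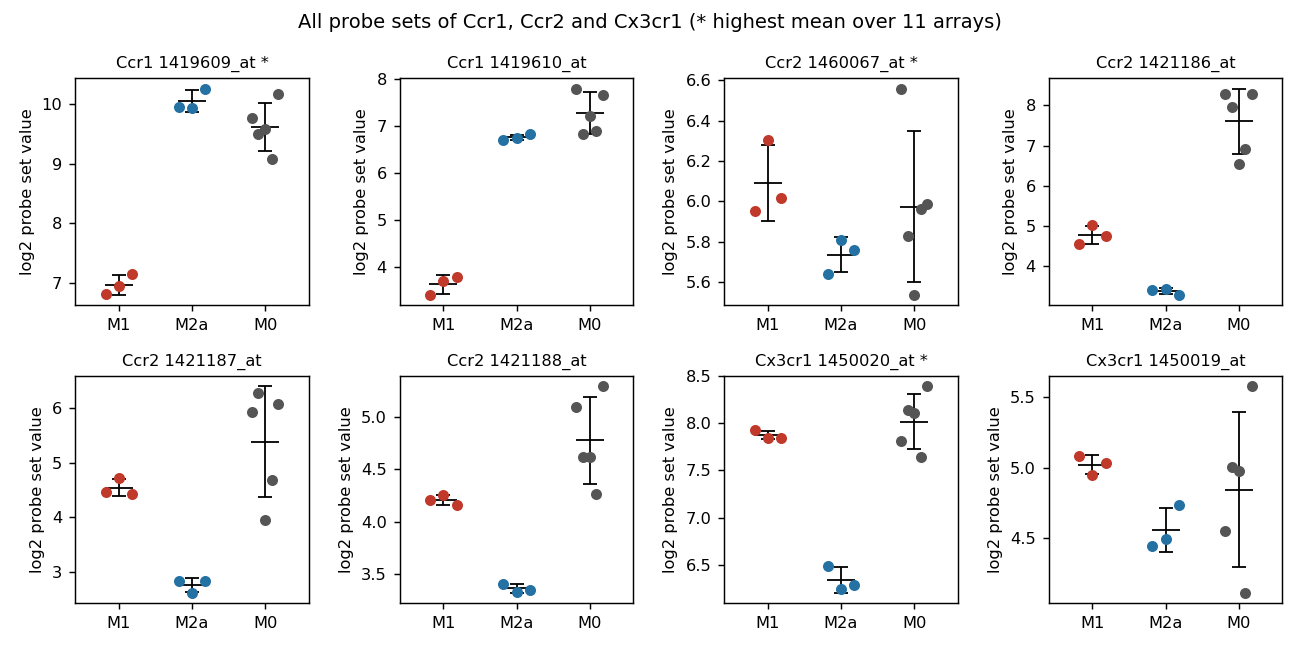
Log2 values of all 8 probe sets of Ccr1, Ccr2 and Cx3cr1 by state (M1 n = 3, M2a n = 3, M0 n = 5), with arrays as points and mean ± SD as bars. An asterisk marks the probe set with the highest mean over 11 arrays. For Ccr2 that probe set shows overlapping M1 and M0 arrays, while 1421186_at separates the 3 states.

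Cxcr2, the receptor for the neutrophil chemokines Cxcl1, Cxcl2, Cxcl3 and Cxcl5, fell in both cytokine states. Its values were 4.52, 4.44 and 4.32 in M1, 5.40, 5.29 and 5.14 in M2a, and 7.43, 6.90, 7.90, 7.21 and 7.60 in M0. No group overlapped another. The difference from M0 was -2.98 ± 0.19 in M1 (SE; adjusted p = 2.48e-07) and -2.13 ± 0.19 in M2a (SE; adjusted p = 6.62e-06). M1 was lower than M2a by 0.85 on the log2 scale, a difference of -0.85 ± 0.21 (SE; adjusted p = 0.00949).

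Cxcr4, the receptor for Cxcl12, also fell in both states and to a similar mean. Its values were 7.86, 7.89 and 7.84 in M1, 7.98, 7.88 and 8.43 in M2a, and 9.47, 9.12, 9.41, 8.92 and 9.75 in M0. All 6 arrays of the cytokine states lay below the lowest M0 array, and M1 and M2a overlapped. The difference from M0 was -1.47 ± 0.18 in M1 (SE; adjusted p = 5.78e-05) and -1.24 ± 0.18 in M2a (SE; adjusted p = 0.000301). M1 and M2a differed by -0.23, with a 95% interval from -0.67 to 0.21 (adjusted p = 0.44), and with the actin 5' minus 3' difference as a covariate by -0.69 (adjusted p = 0.0142).

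Cx3cr1, the fractalkine receptor, fell in M2a. Its representing probe set read 7.93, 7.85 and 7.85 in M1, 6.49, 6.24 and 6.28 in M2a, and 7.81, 8.14, 8.10, 7.64 and 8.39 in M0. The M2a arrays lay below all others, and the M1 arrays lay within the M0 range. M2a differed from M0 by -1.68 ± 0.15 (SE; adjusted p = 8.32e-06), M1 exceeded M2a by 1.54 ± 0.17 (SE; adjusted p = 2.87e-05), and M1 differed from M0 by -0.14 (95% interval -0.48 to 0.19, adjusted p = 0.481). The M1 difference from M0 was -0.29 after quantile normalization (adjusted p = 0.0136) and -0.25 with weights per array (adjusted p = 0.041). In settings chosen after the data were seen it was -0.34 with only M0 arrays 2, 3 and 5 (adjusted p = 0.0165), -0.58 with the actin covariate (adjusted p = 0.00521) and -0.88 with the hybridization covariate (adjusted p = 0.00524).

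The second Cx3cr1 probe set, 1450019_at, did not pass in any comparison. It averaged 5.02 ± 0.07 in M1, 4.56 ± 0.16 in M2a and 4.84 ± 0.55 in M0 (SD, n = 3, 3 and 5), and its M2a difference from M0 was -0.29 (adjusted p = 0.426 over all probe sets). With the mean of both probe sets the M2a difference from M0 was -0.98 and the M1 difference from M2a was 1.00, both still passing (adjusted p = 0.00246 and 0.00458).

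Ccr7, which guides dendritic cells to lymph nodes, had values of 5.69, 5.67 and 5.92 in M1, 5.48, 5.55 and 5.27 in M2a, and 5.70, 5.29, 4.95, 4.84 and 5.79 in M0. M1 and M2a each overlapped M0, while the M1 arrays lay above the M2a arrays. The difference from M0 was 0.45 in M1 (95% interval -0.01 to 0.90, adjusted p = 0.111) and 0.12 in M2a (-0.34 to 0.57, adjusted p = 0.708). M1 and M2a differed by 0.33 (-0.18 to 0.84, adjusted p = 0.328). Without M0 array 5 the M1 difference from M0 was 0.56 (adjusted p = 0.0261). Whether these values lie above background was not tested.

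In M1 against M0, Ccrl2 lay wholly above and Ccr1, Cxcr2 and Cxcr4 wholly below, beside 40.1% of all genes that do not overlap. In M2a against M0, Cx3cr1, Cxcr2 and Cxcr4 lay wholly below, beside 35.1% of all genes. In M1 against M2a, Ccr2, Ccr7, Ccrl2 and Cx3cr1 lay wholly above and Ccr1 and Cxcr2 wholly below, beside 64.6% of all genes. In a fit of the M1 and M2a arrays alone, which leaves out the wider M0 spread, 10357 of the 18193 genes passed between M1 and M2a, and 6 of the 7 members, among them Ccr2 at 0.35 (adjusted p = 0.016) and Ccr7 at 0.33 (adjusted p = 0.0212).

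The M0 arrays limited the precision of the comparisons against M0. All comparisons shared 1 estimate of spread, so the M0 spread also entered M1 against M2a. There the SE was 0.21 for Ccr2 and 0.23 for Ccr7, against 0.099 for each with only the 2 groups compared. The SDs of the members lay between 0.29 and 0.69 in M0, against 0.03 to 0.19 in M1 and 0.09 to 0.29 in M2a, and the median SD over all genes was 0.08 in M1, 0.09 in M2a and 0.24 in M0. Array 5 was the highest M0 array for 5 of the 7 members and array 4 the lowest for 5, beside 29.3% and 25.2% of all genes. On every probe set of the table the mean of M0 arrays 4 and 5 equalled that of arrays 1 to 3 to within 8.3e-05, so that arrays 4 and 5 mirror each other around the M0 mean and the 5 arrays are not independent. The limma tests treated the 5 arrays as independent. The p-values of fits with all 11 arrays therefore rest on an assumption that these arrays do not meet. The sources used here give no reason for the equal means. The control probe sets also separated the states. The spiked poly-A controls averaged 5.62 in M1, 6.40 in M2a and 9.62 in M0, and the actin 5' minus 3' difference averaged 0.15 in M1, -0.57 in M2a and -0.61 in M0. The hybridization controls ran from 10.44 to 11.56 in M0, 9.35 to 9.56 in M1 and 9.59 to 9.78 in M2a, without overlap. The actin differences of M1, 0.13 to 0.18, lay above those of both other states. Where the ranges do not overlap, a covariate fit cannot separate these controls from the states. The part of the controls in the receptor results was not tested beyond the covariate fits given here.

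Levels of markers of other myeloid cells also separated the states, in a sort for F4/80. Of 12 measured neutrophil markers, 11 fell in M1 and 12 in M2a, with a mean over the list of 7.42 to 7.58 in M1, 5.51 to 5.59 in M2a and 11.30 to 12.65 in M0. Cxcr2 is carried by neutrophils as well as by some macrophages. In a bulk sample, fewer cells of a type and less RNA per cell cannot be told apart, and the part of these cells in the fall of Cxcr2 was not tested.

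Of 7 measured monocyte markers, 4 fell and 2 rose in M1, and 6 fell and 1 rose in M2a. Their mean was 8.34 to 8.42 in M1, 5.94 to 5.98 in M2a and 8.98 to 9.70 in M0. The means of 1421186_at, 1421187_at and 1421188_at of Ccr2 were in the same order of states, while the representing probe set 1460067_at was highest in M1 and lowest in M2a. All 10 eosinophil, basophil and mast cell markers fell in each cytokine state, with a mean of 3.89 to 3.93 in M1, 4.17 to 4.28 in M2a and 6.78 to 8.71 in M0. Of 8 dendritic cell markers, 2 rose and 2 fell in M1, and 2 rose and 1 fell in M2a, with means of 5.81 to 5.85 in M1, 5.92 to 5.95 in M2a and 5.99 to 6.07 in M0. Of 8 lymphocyte markers, 2 rose and 2 fell in M1, and 1 rose and 2 fell in M2a. Of 7 stroma markers, 1 rose and 2 fell in M1, and 1 rose and 5 fell in M2a. Of 9 macrophage markers, 5 rose and 1 fell in M1, and 2 rose and 5 fell in M2a, and Adgre1, which encodes F4/80, averaged 12.41 in M1, 11.74 in M2a and 11.19 in M0. For all these marker counts, the shares of all genes were 22.1% up and 17.6% down in M1, and 18.6% up and 13.3% down in M2a. The part of other cells in the receptor values was not tested.

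**Figure D4:**
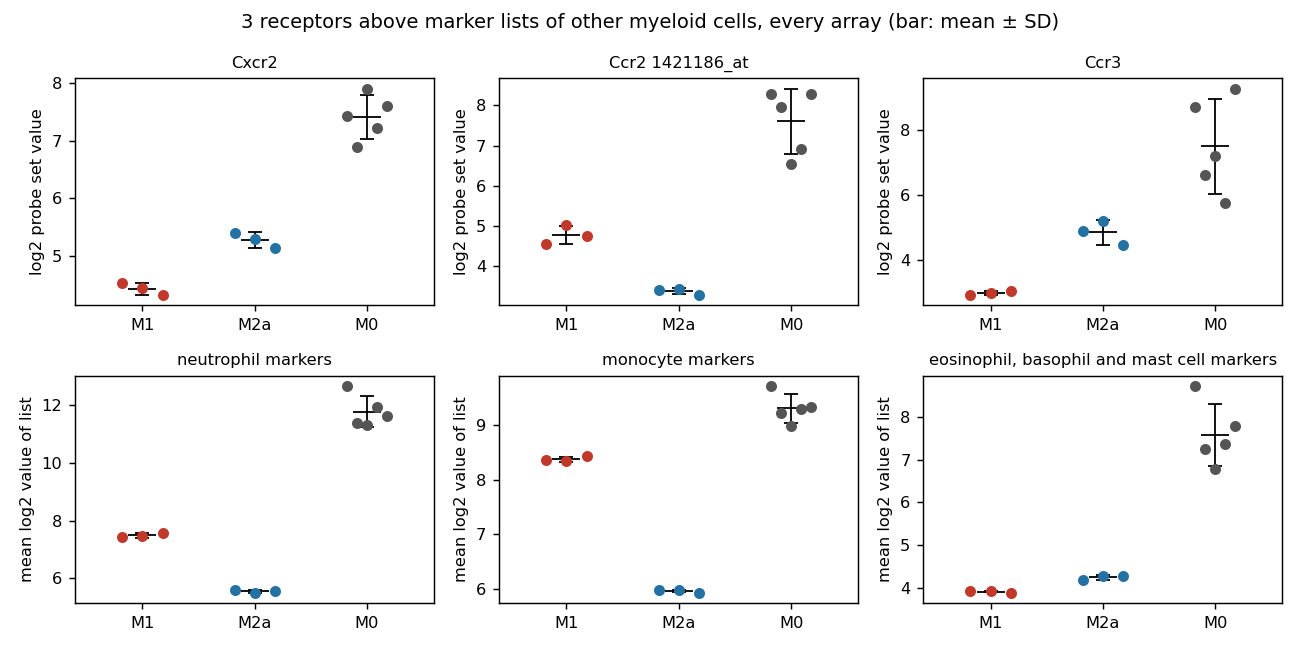
Log2 values of Cxcr2, Ccr2 (1421186_at) and Ccr3 (upper row) above the mean log2 value of the neutrophil, monocyte and eosinophil, basophil and mast cell marker lists (lower row), by state (M1 n = 3, M2a n = 3, M0 n = 5). Points are arrays and bars the mean ± SD. In all 6 panels the M0 mean is the highest of the 3 states.

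Of 16 other chemokine receptors measured, 3 rose and 5 fell in M1, and 1 rose and 2 fell in M2a, with medians of -0.12 and 0.05. Among all genes 22.1% rose and 17.6% fell in M1, and 18.6% rose and 13.3% fell in M2a. The medians of all genes were 0.06 and 0.07. Cmklr1, the signalling receptor for chemerin, read 9.65, 9.79 and 9.86 in M1, 5.41, 5.28 and 5.28 in M2a, and 5.34, 6.54, 6.47, 5.76 and 6.47 in M0. It rose by 3.65 in M1 (adjusted p = 4.93e-07) and fell by 0.79 in M2a (adjusted p = 0.0295), so that Ccrl2 and Cmklr1, which both bind chemerin, were both highest in M1. Ccr8 rose by 0.59 and Ccr10 by 0.47 in M1 (adjusted p = 0.01525 and 0.00188), and Ccr10 rose by 0.36 in M2a (adjusted p = 0.0119). Ccr8 read 4.40, 4.33 and 4.33 in M1 and 3.76, 3.76, 3.76, 4.26 and 3.27 in M0. All values of Ccr8 and Ccr10 lay below the highest Cd4 value, 6.19, and were not shown to lie above background.

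Ccr3, the eotaxin receptor of eosinophils and basophils, read 2.92, 2.99 and 3.04 in M1, 4.87, 5.20 and 4.45 in M2a, and 8.68, 6.60, 7.19, 5.73 and 9.26 in M0. It fell by 4.51 in M1 (adjusted p = 0.000195) and fell by 2.65 in M2a (adjusted p = 0.00858), alongside the eosinophil, basophil and mast cell markers above. In M1, Cxcr6 fell by 0.97 (adjusted p = 0.0349), Ccr1l1 fell by 0.83 (adjusted p = 0.000398), Ccr6 fell by 0.79 (adjusted p = 0.00101) and Ackr1 fell by 0.41 (adjusted p = 0.0294). All values of Cxcr6, Ccr1l1 and Ccr6, and the M1 values of Ackr1, lay below the highest Cd4 value, 6.19. They were not shown to lie above background. Cxcr1 was not analysed here.

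Ligands of the receptors other than Ccr7 moved both ways in M1 and mostly downward in M2a. The listed Ccr7 ligands, Ccl19 and Ccl21a, were not among the genes measured here. Of 17 measured, 5 rose and 5 fell in M1 (median 0.23), 2 rose and 9 fell in M2a (median -0.47), and between the states 9 were higher and 3 lower in M1. The shares of all genes were 22.1% up and 17.6% down in M1, and 18.6% up and 13.3% down in M2a. Between the states 13.7% of all genes were higher and 15.6% lower in M1. Among ligands of Ccr1, Ccl5 averaged 13.92 in M1, 5.82 in M2a and 6.29 in M0, while Ccl6 averaged 7.46 in M1, 12.26 in M2a and 12.72 in M0. In M1, Ccl6 fell by 5.25 (adjusted p = 1.55e-11), Ccl9 fell by 1.92 (adjusted p = 1.08e-06) and Ccl3 fell by 0.97 (adjusted p = 0.00297), while Ccl5 rose by 7.63 (adjusted p = 3.95e-11).

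Among the ligands of Cxcr2, Ppbp fell by 6.10 in M1 and fell by 4.61 in M2a (adjusted p = 7.5e-09 and 1.43e-07). Cxcl1 rose by 0.89 in M1 (adjusted p = 7.33e-05). Cxcl3 fell by 0.90 in M1 and fell by 4.65 in M2a (adjusted p = 0.0291 and 4.71e-07), and Cxcl2 fell by 3.03 and Cxcl5 fell by 2.61 in M2a (adjusted p = 1.43e-05 and 0.00421). Ccl12, a Ccr2 ligand, rose by 0.71 in M1 (adjusted p = 0.00142), and Ccl8 rose by 0.62 in M1 and by 0.42 in M2a (adjusted p = 0.00333 and 0.0323). Cx3cl1, which encodes fractalkine, rose by 0.37 in M2a (adjusted p = 0.02755). It read 6.06, 5.91 and 6.06 in M2a and 5.93, 5.51, 5.49, 5.76 and 5.53 in M0, so the groups overlapped. Cxcl12, the ligand of Cxcr4, differed from M0 by 0.10 in M1 and 0.22 in M2a and did not pass (adjusted p = 0.625 and 0.282). In every array Cxcl5, Ccl12, Ccl8, Cx3cl1 and Cxcl12 read below the highest Cd4 value, 6.19. They were not shown to lie above background.

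**Figure D5:**
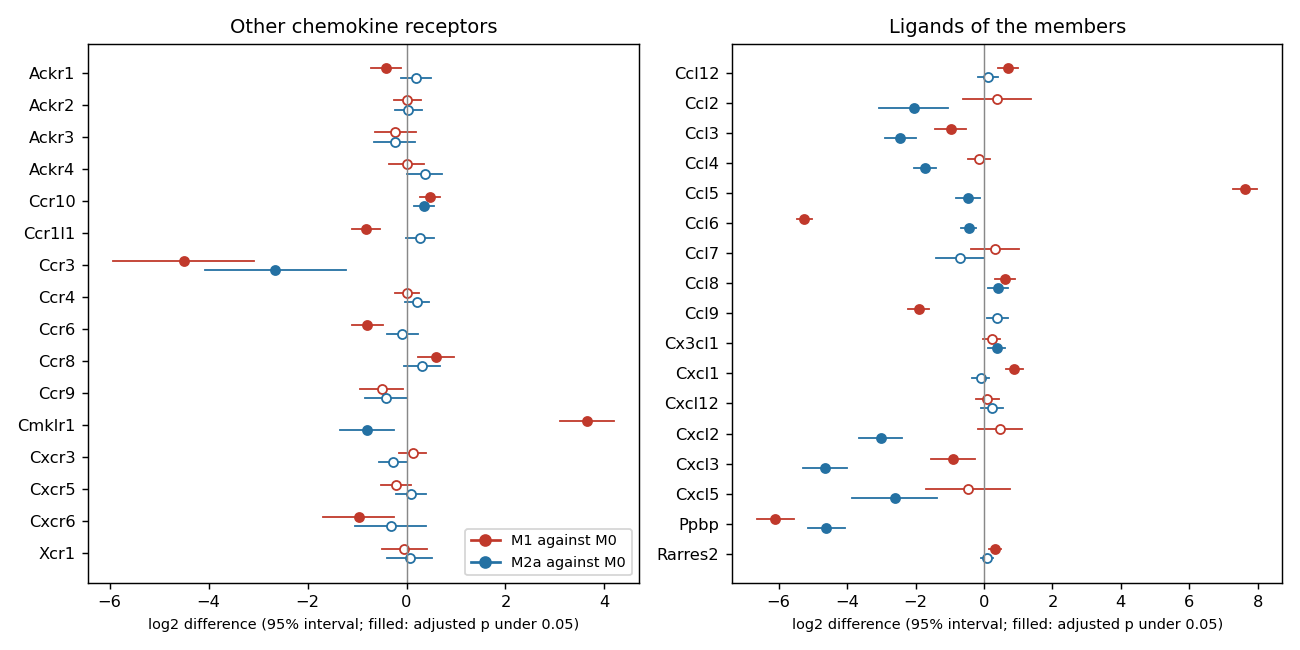
Log2 difference in the limma fit (x axis) with 95% intervals for 16 other chemokine receptors (left) and 17 ligands of the members except Ccr7 (right). M1 against M0 is in red and M2a against M0 in blue. Filled points have an adjusted p under 0.05. Cmklr1 and Ccl5 lie farthest to the right in M1, and Ccr3 and Ppbp farthest to the left.

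Of 31 measured genes that pass on or end the receptor signal, 2 rose and 12 fell in M1 (median -0.11), and 4 rose and 16 fell in M2a (median -0.38). Beside them 22.1% of all genes rose and 17.6% fell in M1, and 18.6% rose and 13.3% fell in M2a. Of the regulators that switch off G proteins, Rgs18 fell by 6.02 (adjusted p = 1.06e-09), Rgs2 fell by 2.36 (adjusted p = 4.45e-07) and Rgs10 fell by 2.01 (adjusted p = 2.73e-06) in M1. The receptor kinase Grk6 fell by 1.80 in M1 (adjusted p = 1.15e-05). The guanine nucleotide exchange factor Vav1 rose by 0.96 and the small GTPase Rac2 by 0.84 in M1 (adjusted p = 5.42e-05 and 0.0001865). In M2a, Rgs1 rose by 1.61, Rgs16 by 0.99, Dock2, a Rac activator, by 0.84 and Grk5 by 0.56 (adjusted p = 0.00305, 0.000141, 1.15e-05 and 0.0202). All values of Rgs16 lay below the highest Cd4 value, 6.19, and were not shown to lie above background. Also in M2a, Grk6 fell by 1.39 (adjusted p = 0.0001305), the phospholipase Plcb2 fell by 1.33 (adjusted p = 0.00142), the G protein subunit Gng2 fell by 1.32 (adjusted p = 0.000331) and Grk3 fell by 1.22 (adjusted p = 4.49e-05).

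Among the members themselves, Cxcr2 and Cxcr4 had the most similar pattern over the 11 arrays (Pearson r = 0.95) and Ccr1 and Ccrl2 the most opposed (r = -0.84). Among 7230 genes whose values span at least 1 log2 unit, the genes most like each member over the 11 arrays were Sh3kbp1 and Vcl for Ccr1 (r = 0.99 each), Whamm and Phyh for Ccrl2 (r = 0.99 each), Nat8l (r = 0.99) and Bmx (r = 0.98) for Cxcr2, Tmem154 (r = 0.99) and Ubn1 (r = 0.98) for Cxcr4, and Lpar6 (r = 0.996) and Maf (r = 0.99) for Cx3cr1. Ccr7 was closest to Cog5 (r = 0.92) and Apmap (r = 0.90), and Ccr2 by its representing probe set to Ttc16 (r = 0.90) and Psg16 (r = 0.87). These correlations are a description over 11 arrays that share 3 states.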

How the data were processed

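RNA of 11 F4/80-sorted macrophage samples (M1 3, M2a 3, M0 5) was hybridized to Affymetrix arrays, per the labels' protocols. The deposited table holds log2 values of 45101 probe sets. Partek is named in the submitters' processing notes. How background was corrected and arrays were normalized is not given in the sources used here. Values ran from 0.73 to 14.49, with array medians of 5.14 to 5.34. The number of arrays limits the precision.

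Of the probe sets, 34945 had 1 gene symbol, brought up to date through Entrez identifiers where RefSeq held them (34741); the probe set with the highest mean over all arrays stood for each of 18193 genes. Differences were tested with limma 3.58.1 in R 4.3.3 (1 mean per group, all 11 arrays, no block), with Benjamini-Hochberg adjustment over all genes, or over all 34945 probe sets where stated. The script was tested on simulated data. The members and gene lists were chosen with earlier results of these data known. Named genes were all 7 members and up to 4 rises and 4 falls per list and comparison, and for likeness 2 genes per member, passing over clone-like symbols. The TATAAA search and CpG counts were added after the promoter sequences were seen. Cxcl12, named in the text though it did not pass, and Adgre1 fall outside that rule and were named after their values were seen. Probe sets with several symbols were left out. Alternatives were other normalizations, probe set choices, filters, moderation, weights, arrays and covariates.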

Additional observations from a re-analysis of the deposited data

How the results depend on the processing

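All 11 member differences that passed the limma test kept their direction and their adjusted p under 0.05 in all 29 alternatives run on each. Many of these alternatives could change the adjusted p but not the difference. Among them were other moderation, weights per group, only the 2 groups compared, and fewer genes tested. The replicate block and the fits with M0 arrays 1 to 3 or 4 and 5 also kept it, because these arrays share 1 mean. The 10 that did not pass each changed call or direction in at least 1 alternative. Reversed differences were, with the mean of all probe sets of a gene, Ccr1 in M2a against M0 (-0.0436), Ccr2 in M1 against M0 (-1.03) and Cx3cr1 in M1 against M0 (0.017). With weights per array, Ccrl2 in M2a against M0 was -0.0106, and all 7 members passed in M1 against M0, where 10288 of the 18193 genes passed. With the hybridization controls as a covariate, M2a against M0 was -0.0543 for Ccr1, 0.32 for Ccr2, -0.0658 for Ccr7 and -1.23 for Ccrl2. With the actin 5' minus 3' covariate, Ccr7 was -0.0825 in M1 against M0 and -0.17 in M1 against M2a. With M0 arrays 2, 3 and 5 only, Ccrl2 in M2a against M0 was -0.14. With Ccr2 read by 1421186_at, it was -2.82 in M1 against M0. The covariates, the M0 subset of 3 arrays and the change of Ccr2 probe set were chosen after the data were seen. Leaving out each array in turn gave -0.0023 to 0.24 for Ccr7 in M2a against M0, below 0 without M0 array 4.

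Of all genes, 7217 passed in M1 against M0, 5804 in M2a against M0 and 5341 in M1 against M2a. Called and at least 2-fold changed were 2306, 1703 and 1998. With M0 arrays 4 and 5 only, 4758 passed in M1 and 3801 in M2a against M0, with fewer arrays, and among genes above the median gene 4625 passed in M1 against M0, with fewer genes tested. M1 against M2a gave 10384 with weights per group, 11342 with weights per array, 10357 with only these 2 groups, 8653 with M0 arrays 2, 3 and 5 only and 8103 with the hybridization covariate; the cause was not tested.

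The replicate block, which leaves M0 arrays 4 and 5 no weight in the differences, gave 8023, 6492 and 6963 genes in these comparisons and changed 1 member call, that of Ccr1 in M2a against M0 (0.43, adjusted p = 0.0281). Same-numbered arrays of different groups were checked for pairing by correlating their deviations from the group means. These correlated at 0.25, 0.04 and 0.17 between M1 and M0, and at 0.00, 0.01 and -0.04 between M2a and M0. Between M1 and M2a they correlated at 0.04, 0.01 and 0.02. Different-numbered arrays of M1 and M0 arrays 1 to 3 correlated at -0.24 to 0.22. These values do not settle whether M1 and M0 arrays are paired. The labels name no pairs, and the numbers were not taken as pairs.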
